A study of Mus musculus with 2 samples.

Results

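The urea cycle and periportal nitrogen genes are 10 genes of hepatic ammonia disposal and amino acid breakdown, namely Nags, Gls2, Cps1, Otc, Slc25a15, Ass1, Asl, Arg1, Hal and Sds. They were chosen by symbol from the 33224 gene symbols with a usable estimate in the deposited table, and all 10 were found, each in a single row. Hepatic RNA was sequenced from regenerating livers of wild-type (WT) and PPARβ-null (KO) male C57BL/6 mice, labelled as 4 months old, 48 hr after partial hepatectomy (PH), the time being that of the paper. There was 1 library of each genotype, so the 2 libraries are all that was compared and the variation between mice is unknown. PPARβ is a nuclear receptor encoded by Ppard, and the KO mice carry a null allele of it whose construction is not given in the sources used here. How many mice gave RNA to each library is also not given there, and no unoperated or sham-operated liver was analysed here, so a level cannot be set against that before PH.

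Ammonia released from amino acids is toxic, and the liver turns it into urea. The cycle starts in the mitochondria of hepatocytes, passes its intermediates to the cytosol and brings ornithine back through a carrier in the inner membrane. Its enzymes are most abundant in hepatocytes around the portal vein, together with enzymes that release nitrogen from glutamine, histidine and serine, while hepatocytes around the central vein capture the remaining ammonia as glutamine. The enzymes of the cycle are known to be raised by glucagon and glucocorticoids and by a protein-rich diet.

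Most of the cycle was lower in the KO library. Of the 10 genes, 9 had a lower level in KO than in WT, Nags among them except with equal upper quartiles, and 7 were lower by at least 1.5-fold, which is the fold used for a call. Levels are given in FPKM, that is fragments corrected for exon length and for the mapped fragments of a library. Among the 11723 genes averaging 1 FPKM or more over the libraries, 75.6% had a lower level in KO by any amount, 19.1% were lower by that fold and 3.99% were higher by it. A lower level by itself was therefore common. None of the 10 genes was higher in KO by 1.5-fold. At 2-fold, 5 of the 10 genes were lower in KO, against 8.23% of all genes lower and 1.71% higher. Computed on FPKM with a pseudocount of 0.1, the log2 KO/WT had a median of -0.95 over the 10 genes and of -0.24 over the 11723 genes. All 10 genes were abundant, with a mean FPKM of 51.6 or more, so the 1488 genes averaging 50 FPKM or more were taken as a further background after the data were seen. In this background 67.3% had a lower level in KO, 13.3% were lower by the fold and 9.27% higher, and its median was -0.19.

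The general shift toward lower values in KO touches each of these calls. Values relative to the shift were obtained by centring on the median of the 11723 genes, and they are called centred below. After centring, 5 of the 10 genes were lower in KO by at least 1.5-fold, against 11.8% of all genes, and 1 gene was higher, against 7.11%. The median of the 10 genes was then -0.72. The order of the 10 log2 ratios is hardly affected by any scaling, since a scaling moves abundant genes alike.

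**Figure D1:**
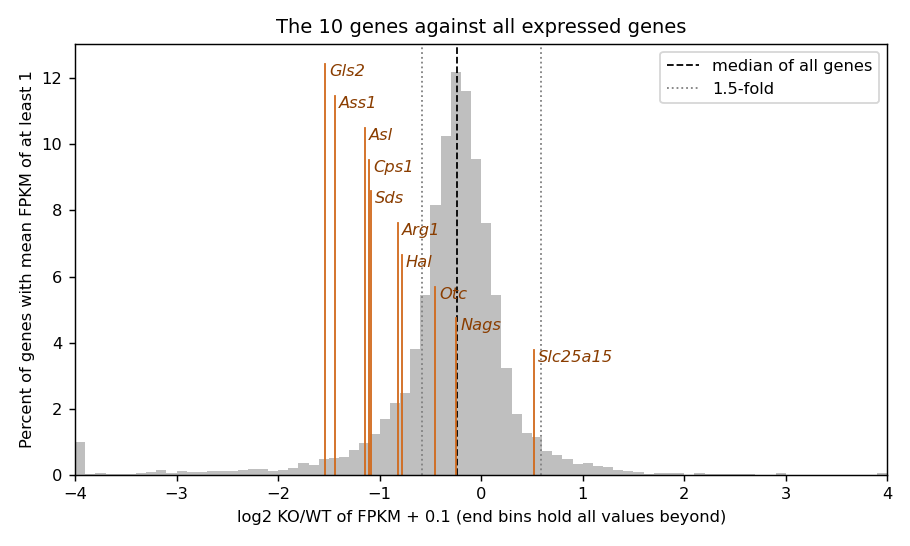
Histogram of log2 KO/WT, on FPKM + 0.1, of the 11723 genes averaging 1 FPKM or more, as percent of genes per bin of 0.1 (a log2 difference), with 1 library per genotype. Orange lines mark the 10 genes, the dashed line the median of all genes at -0.24 and the dotted lines 1.5-fold. Of the 10 genes, 7 lie left of the lower dotted line, Otc and Nags lie between it and 0, and Slc25a15 lies on the right.

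The step that feeds and activates the pathway split into a pair of unlike genes. Nags makes N-acetylglutamate, the obligatory activator of the first enzyme of the cycle, and had an FPKM of 56.0 in WT against 47.3 in KO. Its log2 KO/WT was -0.24, close to the median of all genes, and after centring it was -0.01. Gls2, the liver-type glutaminase that frees ammonia from glutamine in periportal mitochondria, had an FPKM of 188 in WT against 64.5 in KO. With a WT/KO ratio of 2.91 and a log2 KO/WT of -1.54, it had the largest difference of the 10 genes, and 4.02% of all expressed genes had a lower log2 ratio.

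The mitochondrial enzymes differed in the size of their WT/KO ratio. Cps1, the carbamoyl phosphate synthetase that fixes ammonia in the first step, had an FPKM of 1597 in WT against 743 in KO, a WT/KO ratio of 2.15. Otc, encoded on the X chromosome, joins carbamoyl phosphate to ornithine, and its FPKM was 136 in WT against 99.1 in KO. Its ratio of 1.37 stayed under the fold of a call, and its centred log2 KO/WT was -0.22. Cps1 was thus 11.7 times Otc in WT and 7.50 times in KO.

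Slc25a15 went the other way. This gene encodes ORNT1, the mitochondrial ornithine carrier of the cycle, and had an FPKM of 163 in WT against 233 in KO. Its KO/WT ratio was 1.43 and its log2 KO/WT 0.52, under the fold of a call as deposited. A lower log2 ratio was found for 95.2% of expressed genes and for 89.4% of those averaging 50 FPKM or more. After centring the log2 KO/WT of Slc25a15 was 0.76 and past the fold. It was the only one of the 10 genes with a higher level in KO under the deposited scaling. The level of Cps1 relative to Slc25a15 was 9.82 in WT against 3.19 in KO.

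The cytosolic enzymes were all lower in KO. Ass1, the argininosuccinate synthetase that brings in the second nitrogen from aspartate, was the most abundant of the 10 genes, with an FPKM of 2672 in WT against 983 in KO. Its WT/KO ratio of 2.72 and log2 KO/WT of -1.44 were second in size to those of Gls2. Asl, which splits argininosuccinate into arginine and fumarate, was at 505 in WT against 228 in KO, a ratio of 2.21. Arg1, the liver arginase that releases urea, was at 1036 in WT against 586 in KO, a ratio of 1.77. The log2 KO/WT of Arg1 was -0.82 as deposited and -0.58 after centring, just inside the fold of a call, which is 0.58 on this scale, so its centred value was not counted as lower.

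The periportal enzymes of amino acid breakdown outside the cycle were lower too. Hal, the histidine ammonia lyase that removes ammonia from histidine, had an FPKM of 113 in WT against 65.9 in KO, a ratio of 1.72, and its centred log2 KO/WT of -0.55 was no longer past the fold. Sds, the serine dehydratase that turns serine into pyruvate and ammonia, was at 173 in WT against 81.4 in KO, a ratio of 2.12 and a centred log2 KO/WT of -0.85. The genes that stayed past the fold after centring were therefore Gls2, Ass1, Asl, Cps1 and Sds.

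**Figure D2:**
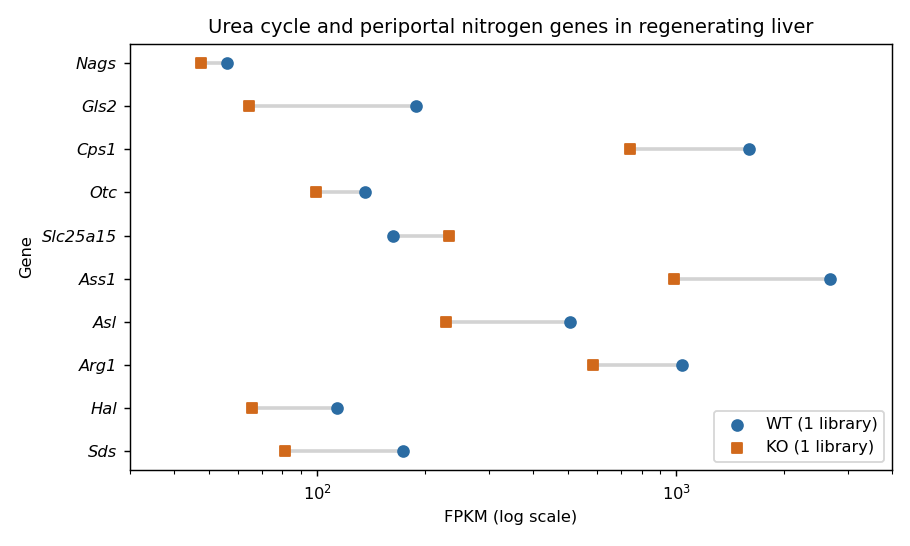
FPKM of each of the 10 genes on a log axis in the WT library (blue circles) and the KO library (orange squares), 1 library each, with a grey line joining the values of a gene. The square lies left of the circle for every gene except Slc25a15, which had 163 in WT against 233 in KO.

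Summed over the 5 enzymes of the cycle, Cps1, Otc, Ass1, Asl and Arg1, the FPKM was 5945 in WT against 2639 in KO, a WT/KO ratio of 2.25. All genes with a usable estimate, Alb not among them, summed to nearly the same FPKM in both libraries, with a ratio of 1.02. In this sum a row of several symbols counts for each of them. The 5 enzymes made up 0.974% of it in WT and 0.443% in KO. Cps1 and Ass1 together gave 0.700% in WT and 0.290% in KO. Ranked among the same genes from the highest FPKM down, a measure that no scaling alters, Ass1 was at rank 34 in WT against 78 in KO, and Cps1 at 54 and 91. Arg1 went from rank 72 in WT to 113 in KO and Asl from 141 to 306. The rank of Gls2 was 409 in WT against 1098 in KO. Nags was at 1406 in WT against 1452 in KO, and Slc25a15 moved up from 492 to 297.

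Within each library the 10 genes could be ordered by FPKM, since the unit is corrected for length. In WT the order ran from Ass1 through Cps1, Arg1, Asl, Gls2, Sds, Slc25a15, Otc and Hal to Nags. In KO the first 3 places and the last were held by the same genes, Slc25a15 took place 4 before Asl, and Gls2 took place 9 instead of 5. The range of levels was narrower in KO, with Ass1 at 47.7 times Nags in WT and 20.8 times in KO. Ass1 exceeded Asl, which takes up its product, 5.30-fold in WT and 4.30-fold in KO. By the estimated number of fragments, the 95% counting intervals of neighbours in this order overlapped for Slc25a15 and Asl and for Hal and Gls2 in KO, and for no neighbours in WT. Counting error is the only error that could be given, and the spread between mice was not measured.

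The depth behind these values was estimated from the low FPKM of single-exon genes, which pile up at multiples of 1 fragment. A fragment on 1 kb was worth 0.0186 FPKM in WT and 0.0189 in KO, so each FPKM unit on such a length stood for about 53.8 and 52.9 fragments. With the length of the longest annotated transcript of each gene, every gene of the 10 was estimated at 5197 fragments or more in each library. Shorter transcripts would give fewer fragments and wider counting intervals. The exact 95% interval for counting error of the KO/WT ratio was 0.456 to 0.487 for Sds, the gene with the widest interval on the log scale, and 0.463 to 0.468 for Cps1. Such intervals do not include the difference between mice, library preparation or the assignment of fragments to genes.

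As a check of the genotype, Ppard had an FPKM of 2.67 in WT against 2.42 in KO, and the counting interval of its KO/WT ratio was 0.792 to 1.04, so this value did not separate the genotypes. The FPKM of a gene counts all of its exons, and single exons were not analysed here. Hepatocyte markers were high in both libraries, with a summed FPKM of 27356 in WT against 31850 in KO over 9 of 10 genes, Alb being left out as a failed estimate. Their median log2 KO/WT was 0.19, and of the 9 genes 2 were higher in KO by the fold and 1, Tat, was lower. Markers of macrophages, a cell type that can also express Arg1, summed to 63.0 in WT against 39.5 in KO, with 7 of 8 lower in KO by the fold and 4 of 8 after centring. Endothelial markers (48.5 and 34.6, 5 of 6 lower by the fold, 3 after centring), stellate cell markers (39.7 and 16.2, 3 of 6, then 2), cholangiocyte markers (29.8 and 25.7, 2 of 5 measured, with or without centring) and neutrophil markers (15.0 and 7.91, 4 of 4 measured, then 3) also had lower sums in KO, and the neutrophil genes Ly6g and Mpo were listed at 0 in both libraries. Erythroid markers summed to 506 in WT against 419 in KO, with none lower and 1 higher by the fold. Lymphocyte markers summed to 0.496 and 0.304, with none past it. Of 6 pancreatic acinar markers 5 were at 0 in both libraries. The other, Cela1, was at 8.77 in WT against 18.8 in KO, higher by the fold. Of all expressed genes 19.1% were lower by the fold, 11.8% after centring, and 3.99% were higher as deposited. The part of these cell types in the values of the 10 genes was not tested. In whole liver, fewer hepatocytes of the periportal kind and less RNA per cell cannot be told apart.

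In the deposited coordinates (mm9, counted from 1), Cps1 lies on chromosome 1 from 67169600 to 67277833, Ass1 on chromosome 2 from 31325727 to 31376192, Asl on chromosome 5 from 130487128 to 130501002, Slc25a15 on chromosome 8 from 23486026 to 23509093 and Otc on chromosome X from 9829431 to 9898150. For these 5 genes the locus has the extent of the gene in GENCODE vM1. The loci of the other 5 were wider, and those of Arg1, Nags, Gls2 and Sds take in a neighbour. Arg1 (chromosome 10, annotated from 24635014 to 24647276) shares its locus with Med23, which had its own row and 2.31 FPKM in WT. Nags (chromosome 11, 102006827 to 102010791) shares it with Tmem101 and overlaps Gm11586 on the other strand, at 7.52 and 2.91 FPKM in WT. Gls2 (chromosome 10, 127631513 to 127647060) overlaps the end of Spryd4 on the other strand, which had 13.5 FPKM in WT and 14.5 in KO. Sds (chromosome 5, 120926540 to 120933941) overlaps Plbd2 and Gm15690 on the other strand, whose joint row had 21.8 FPKM in WT and 13.7 in KO. Hal (chromosome 10, 92951513 to 92982049) overlaps no other annotated gene. In KO the level of Spryd4 was 22.5% of that of Gls2 and the joint row of Plbd2 16.8% of Sds, and reads from overlapping exons could belong to either gene.

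Promoter sequence was taken from a RefSeq table on GRCm38.p6, a later build than that of the deposited loci, in which 5 of the 10 genes had an entry. Windows of 250 bases before the annotated start are shown for 4 genes that span the range of differences, Ass1 and Hal (lower in KO by the fold), Nags (at the median of all genes) and Slc25a15 (higher in KO), so that their base composition can be seen beside their levels. Capitals mark matches, on either strand, to 6 motifs. These were the TATA box, searched as TATAAA, and the CCAAT box, searched by the letters of its name. The GC box, a site of Sp1 proteins, was searched as GGGCGG, and the half-site of the cAMP response element, bound by Creb1 and its relatives, as TGACG. The half-site bound by the glucocorticoid receptor was searched as AGAACA, and the motif of C/EBP factors, with N for any base, was TTNNGNAAT.
Ass1 (chr2:31470020-31470269, plus strand): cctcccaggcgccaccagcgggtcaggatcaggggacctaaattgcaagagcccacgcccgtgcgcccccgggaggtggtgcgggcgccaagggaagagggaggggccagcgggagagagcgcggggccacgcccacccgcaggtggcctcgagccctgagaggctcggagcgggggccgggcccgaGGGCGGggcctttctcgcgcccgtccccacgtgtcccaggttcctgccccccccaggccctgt
Hal (chr10:93488518-93488767, plus strand): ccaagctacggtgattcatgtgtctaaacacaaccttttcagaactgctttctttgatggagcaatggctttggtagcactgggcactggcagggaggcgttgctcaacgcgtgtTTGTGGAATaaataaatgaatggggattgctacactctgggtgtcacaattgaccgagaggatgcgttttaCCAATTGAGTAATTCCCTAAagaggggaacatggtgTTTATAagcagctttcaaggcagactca
Nags (chr11:102145263-102145512, plus strand): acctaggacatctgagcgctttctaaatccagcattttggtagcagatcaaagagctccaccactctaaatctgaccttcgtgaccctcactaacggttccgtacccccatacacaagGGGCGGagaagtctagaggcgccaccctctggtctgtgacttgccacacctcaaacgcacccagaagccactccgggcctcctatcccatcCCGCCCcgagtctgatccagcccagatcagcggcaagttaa
Slc25a15 (chr8:22398622-22398871, minus strand): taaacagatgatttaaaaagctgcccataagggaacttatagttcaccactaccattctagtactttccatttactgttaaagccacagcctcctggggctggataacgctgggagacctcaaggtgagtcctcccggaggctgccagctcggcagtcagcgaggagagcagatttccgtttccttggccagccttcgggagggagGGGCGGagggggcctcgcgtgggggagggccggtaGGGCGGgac

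The windows differed widely in composition. G and C made up 75.6% of the bases for Ass1, 45.6% for Hal, 55.6% for Nags and 57.6% for the Slc25a15 window shown, against a median of 52.4% over the 32851 windows of the table. A second annotated start of Slc25a15 had 80.4% and 5 GC box matches. The GC box was found for Ass1, Nags and both starts of Slc25a15, and 32.7% of all windows hold one. In the Hal window a CCAAT box (in 33.8% of all windows) begins 64 bases before the start and runs into C/EBP matches (in 10.2% of all windows) that begin at 60 and 53, and another C/EBP match begins at 135. A TATA box match on the other strand of Hal begins at 28, and 12.4% of all windows hold one. None of the 6 motifs was found in the Otc window, and no window of these 5 genes held the cAMP half-site (17.8% of all windows) or the glucocorticoid half-site (16.1%). The GC box occurred beside a lower (Ass1), a like (Nags) and a higher level (Slc25a15) in KO. A match is only a match of letters within this window.

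Genes that supply the cycle or take up its products were mostly near the median of all genes. Of 18 such partners 14 averaged 0.1 FPKM or more. Of these, 2 were lower in KO by the fold, against 19.1% of all genes, and 1 was higher, against 3.99%. Their median log2 KO/WT was -0.17, which centring turned to 0.07. The largest difference was that of Slc25a22, a mitochondrial glutamate carrier, with an FPKM of 116 in WT against 476 in KO, a KO/WT ratio of 4.11. The level of Slc25a15 relative to Slc25a22 was 1.40 in WT against 0.490 in KO. A higher level in KO was not general to this carrier family. Slc25a12 (8.53 in WT against 7.01 in KO), Slc25a44 (22.7 and 17.0) and the scarce Slc25a2 (0.0639 and 0.0253) were lower without reaching the fold. These too were named because of their values. Glud1, the glutamate dehydrogenase that releases ammonia from glutamate, was at 455 in WT against 571 in KO. The genes lower by the fold were Gpt, an alanine aminotransferase (163 and 90.6, in a joint row with Ppp1r16a), and Mdh1, the cytosolic malate dehydrogenase (429 and 242). Slc25a13, the aspartate and glutamate carrier that supplies aspartate to Ass1, was at 84.3 in WT against 78.2 in KO and was picked for its role in the cycle after its values were seen. Arg2, the arginase of other tissues, was at 0.140 and 0.0376, far below Arg1 in both libraries.

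The perivenous genes, which mark the opposite end of the liver lobule, had a median on the other side of that of all genes. Of 13 genes 5 were higher in KO by the fold, against 3.99% of all genes, and 1 was lower, against 19.1%. Their median log2 KO/WT was 0.51. Glul, the glutamine synthetase that captures ammonia around the central vein, had an FPKM of 265 in WT against 400 in KO, a KO/WT ratio of 1.51. Gls2 relative to Glul was therefore 0.708 in WT against 0.161 in KO, and Cps1 relative to Glul 6.03 and 1.86. Oat, the ornithine aminotransferase of perivenous cells, was at 1179 in WT against 1418 in KO, a difference under the fold. Cyp2e1 (1039 and 2319), a perivenous cytochrome P450, and Axin2 (2.42 and 5.70), a target of Wnt signalling, were higher in KO by the fold. Cyp1a2, also perivenous, was the gene of the list past the fold in the other direction, with an FPKM of 488 in WT against 142 in KO. Another 3 genes had a lower level in KO without reaching the fold, of which Rhbg, an ammonia transporter in a joint row with 1700021C14Rik and named because of its values, was at 8.34 and 5.62. After centring 7 of the 13 genes were higher by the fold, against 7.11% of all genes, and 1 was lower, against 11.8%.

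The other periportal genes were not uniformly lower. Of 15 genes 7 were lower in KO by the fold, against 19.1% of all genes, and 2 were higher, against 3.99%. The median log2 KO/WT was -0.57. After centring 4 were lower, against 11.8% of all genes, and 2 higher, against 7.11%. Agxt2l1, a phosphoethanolamine lyase, had an FPKM of 88.4 in WT against 14.9 in KO, a WT/KO ratio of 5.93. Aldh1b1, a mitochondrial aldehyde dehydrogenase, was 3.76-fold and Cyp2f2, a periportal cytochrome P450, 2.71-fold lower in KO. Among the most abundant genes of this list, Pck1 (852 and 818) and Fbp1 (626 and 635) belong to glucose metabolism and were nearly level. The WT/KO ratios of the gluconeogenic genes Pck1 and Fbp1 were 1.04 and 0.985, while G6pc, named because of its values, was at 55.3 in WT against 109 in KO.

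**Figure D3:**
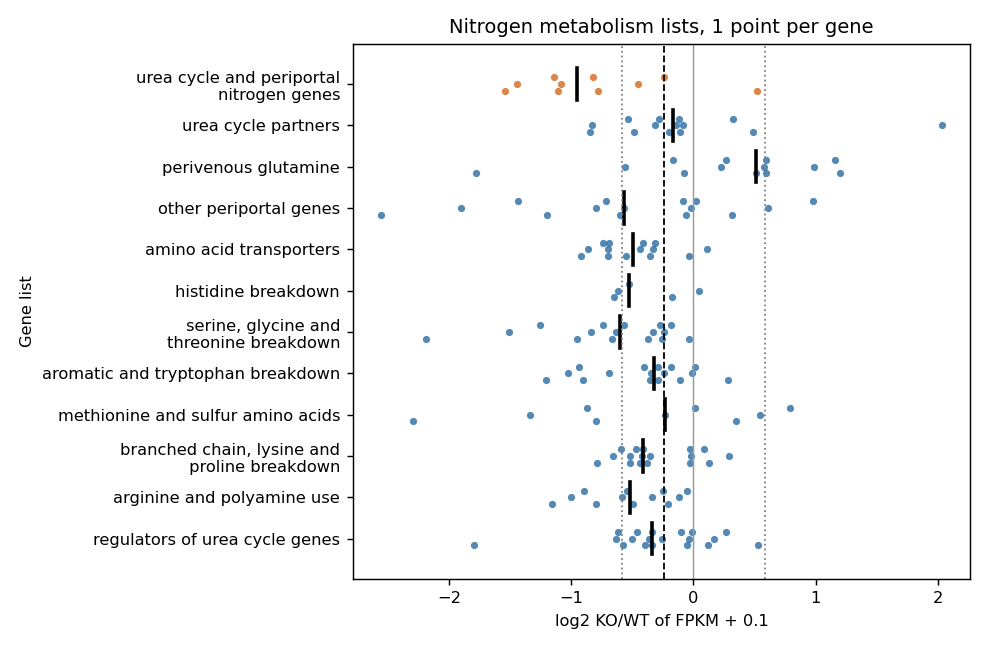
log2 KO/WT of FPKM + 0.1 for each gene averaging 0.1 FPKM or more, 1 point per gene, in the 10 genes (orange) and 11 lists of nitrogen metabolism (blue), from 1 library per genotype. Black bars are list medians, the dashed line is the median of all expressed genes at -0.24 and the dotted lines mark 1.5-fold. The 10 genes have the lowest median at -0.95 and the perivenous genes the highest at 0.51.

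The enzymes that follow Hal in histidine breakdown were lower in KO by smaller ratios than Hal itself. Of 5 genes of histidine use, 2 were lower in KO by the fold, against 19.1% of all genes, and none higher. Their median log2 KO/WT was -0.53. Uroc1, the urocanase that takes up the product of Hal, was at 115 in WT against 75.3 in KO, and Amdhd1, the next enzyme, at 57.0 and 36.3. Ftcd, which completes the pathway, was at 140 and 97.4, under the fold, and no gene of the list was past the fold after centring. Of 16 measured genes of serine, glycine and threonine metabolism, 8 were lower by the fold and none higher, with a median of -0.60. After centring 5 were lower, against 11.8% of all genes. Psat1 (1.77 and 0.312) and Psph (8.03 and 2.75), both enzymes of serine synthesis, and Gcat (29.6 and 15.2), of threonine breakdown, had the largest differences. The abundant genes of this list were Dmgdh (149 and 131), Sardh (168 and 106) and Agxt (110 and 93.4), of which Sardh was lower by the fold. Sdsl, the paralog of Sds, is named because of its values and had an FPKM of 12.2 in WT against 8.19 in KO, so Sds exceeded it 14.2-fold and 9.94-fold.

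A further list held 12 measured genes of creatine, polyamine and related metabolism around arginine and ornithine, not all of which act on either. Of these, 4 were lower in KO by the fold, against 19.1% of all genes, and none higher. All 12 had a lower level in KO as deposited, as did 75.6% of all expressed genes, 9 did after centring, and the median of the 12 log2 KO/WT was -0.52. Gatm (5.20 in WT against 2.55 in KO) and Gamt (73.7 and 33.0), the enzymes of creatine synthesis, and Amd1 (15.1 and 8.07), of polyamine synthesis, had the largest differences. Oaz1, the antizyme that limits ornithine decarboxylase, was at 168 and 155, and Agmat, annotated as an agmatinase, at 85.5 and 67.5. Centring left 3 of the 12 genes lower by the fold, against 11.8% of all genes. Cad, whose first domain makes carbamoyl phosphate for pyrimidines in the cytosol and whose row also names 0610007C21Rik, was at 35.1 in WT against 30.4 in KO and is named because of its values. Cps1 exceeded Cad 45.6-fold in WT and 24.5-fold in KO.

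Known regulators of these genes were closer to the median of all genes than the 10 genes were. The list of 19 genes also holds Asns, asparagine synthetase, which is a target of Atf4 rather than a regulator. Of the 19 genes 3 were lower in KO by the fold, Asns among them, against 19.1% of all genes, and none was higher. Their median log2 KO/WT was -0.33 as deposited and -0.10 after centring. Hnf4a, the nuclear receptor of hepatocyte identity, had an FPKM of 172 in WT against 193 in KO, and Gcgr, the glucagon receptor, 91.0 and 109. Cebpb, a C/EBP factor of the liver, was at 75.8 and 59.8. Creb1, the cAMP response factor, was at 4.88 in WT against 3.11 in KO, and Klf15, a factor that raises amino acid breakdown, at 46.5 and 30.2, both past the fold as deposited but not after centring. Asns had the largest difference, with 5.30 and 1.45, and was the gene of the list still lower by the fold after centring. Crem, a cAMP response factor named because of its values, was at 22.4 and 32.5, under the fold as deposited and higher by it after centring. These are mRNA levels, and neither the activity of the factors nor any protein was measured here.

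**Figure D4:**
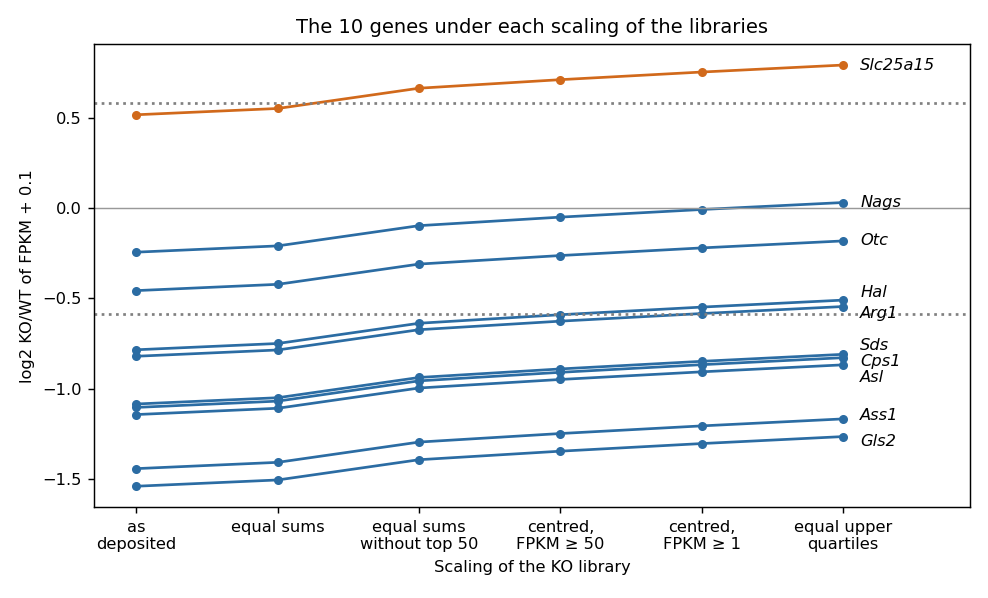
log2 KO/WT of FPKM + 0.1 of the 10 genes as deposited and under 5 other scalings of the KO library, with 1 line per gene (orange for Slc25a15, blue for the others) and dotted lines at 1.5-fold. The lines run in parallel from left to right, Slc25a15 passes the fold under 4 of the 5, Nags crosses 0 with equal upper quartiles, and Gls2 and Ass1 stay lowest throughout.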

How the data were processed

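RNA of regenerating liver was measured in 1 WT and 1 KO library. The authors aligned reads to NCBI37 (mm9) with TopHat 2.0.0, assembled transcripts with Cufflinks 1.3.0 and estimated FPKM per locus with Cuffdiff, and the deposited FPKM values were used as they stand. Whether quartile normalization was applied is not given in the sources used here. The deposited columns of the authors' own comparison (log2 fold, statistic, p-value and q-value) were not used. The table held 38016 loci, of which 21 marked HIDATA were left out, 2302 had no symbol and 850 named several symbols. Rows of a symbol were summed. With 1 library per genotype no test across samples was run, and a call is a ratio of at least 1.5-fold of FPKM + 0.1, which understates differences of low genes. Medians of lists took genes averaging 0.1 FPKM or more. Depth was estimated as described in the results. Annotation was GENCODE vM1 (NCBIM37), the build of the files, and 5 of the 10 loci match it to the base. The computations ran in Python 3.11.15 with scipy 1.17.1, pandas 2.3.3, numpy 2.4.6 and, for figures, matplotlib 3.10.9. The centring and the calls were tested on simulated libraries with counting noise alone, without variation between mice. The changes put into them were well above 1.5-fold, so recovery of changes near the fold was not tested. The 10 genes and the 11 pathway and 9 marker lists were chosen with earlier results of these data known. Named were the 10 genes, Ppard and, of each pathway list, the 3 genes with the highest mean FPKM. Also named were the 3 with the largest size of log2 KO/WT, in either direction, among those averaging 1 FPKM or more. A few listed genes are not reported here. Other genes are named as chosen after their values were seen, or as neighbours or counterparts of the 10 genes.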

Additional observations from a re-analysis of the deposited data

How the results depend on the processing

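No paired analysis was possible because each genotype has 1 library, and for the same reason no library could be left out. Over 12 alternatives between 5 and 7 of the 10 genes were lower in KO by the fold (7 as reported). The count of genes higher in KO, 0 as reported, was 1 (Slc25a15) after centring on genes averaging 1 FPKM or more, with equal upper quartiles, with equal sums without the 50 most abundant genes and after centring on genes averaging 50 FPKM or more, the last chosen after seeing the data. The median over the 10 genes of log2 KO/WT, -0.95 as reported, was -0.72, -0.68, -0.81 and -0.76 under these in turn. Hal and Arg1 lost the fold under 2 of the 11 alternatives that give a log2 ratio, and Nags changed sign under 1. Settings on rows, pseudocounts and low FPKM could hardly move the 10 genes, each in a single row and averaging 51.6 FPKM or more. Only the 5 scalings could change their log2 ratios by much. The median of the urea cycle partners changed sign under 3 of 11 and that of the methionine genes under 2. Over the 11 pathway lists 45 entries were lower in KO by 1.5-fold, 25 after centring, 22 with equal upper quartiles, 31 with equal sums without the 50 most abundant genes and 14 at 2-fold. Of all genes averaging 1 FPKM or more, 19.1% were lower by 1.5-fold, 11.8% after centring and 8.23% at 2-fold. These counts are therefore no result about the lists by themselves. With 1 library per genotype, the spread between mice limits these results and could not be measured.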

Other observations

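Other routes of amino acid breakdown were measured in the same libraries. Of 14 measured amino acid transporters, 13 had a lower level in KO, as did 75.6% of all expressed genes, and 12 did after centring. Lower by 1.5-fold or more were 6 of them, against 19.1% of all genes. After centring on the median of all genes 2 were, against 11.8%. Their median log2 KO/WT was -0.49 as deposited. Slc38a3, a glutamine carrier, had an FPKM of 536 in WT against 321 in KO. Slc38a4 (386 and 237) and Slc1a5 (3.00 and 1.61), both neutral amino acid carriers, were also past the fold, while Slc7a2, the hepatic arginine carrier, was at 121 in WT against 89.5 in KO. Among 16 genes of aromatic amino acid and tryptophan breakdown, 5 were lower in KO by the fold and none higher, with a median of -0.32. After centring 4 were lower, and the shares of all genes are those given for the transporters. Tat, the tyrosine aminotransferase, was at 1115 and 595 and Hpd, which follows Tat in tyrosine breakdown, at 1125 and 881. Acmsd (72.0 and 31.2), of the kynurenine pathway, Qdpr (231 and 114), which restores tetrahydrobiopterin, and Afmid (69.8 and 36.6, in a joint row with Syngr2) had the largest differences.

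Enzymes of methionine and sulfur amino acids went both ways, with a median log2 KO/WT of -0.23. Of 9 genes 4 were lower in KO by the fold, against 19.1% of all genes, and 1 was higher, against 3.99%. After centring 3 were lower, against 11.8%, and 2 higher, against 7.11%, and the median was 0.00. Cth, the cystathionine lyase that makes cysteine, had an FPKM of 667 in WT against 136 in KO, a WT/KO ratio of 4.91. Gnmt, which disposes of excess methyl groups, was at 1410 and 558, and Csad, of taurine synthesis, at 35.6 and 19.5. Mat1a, the liver methionine adenosyltransferase, was at 1374 and 2005, under the fold as deposited and higher by it after centring, and Bhmt, which remakes methionine from homocysteine, at 1708 and 1454. Of 17 genes of branched chain amino acid, lysine and proline breakdown, 3 were lower by the fold, against 19.1% of all genes, and none higher. Centring left none past it. The 3 were Ivd (64.5 and 37.3), Mccc1 (18.2 and 12.0) and Aldh4a1 (160 and 102), while Aldh7a1 was at 219 and 158 and Aass at 168 and 166. The median of this list was -0.41.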
